A study of Mus musculus with 22 samples.

Results

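RNA polymerase III (Pol III) needs its own subunits, subunits it shares with the other nuclear RNA polymerases, and a set of promoter-binding factors. The 36 genes described here encode that machinery and were chosen by name: 10 genes for Pol III subunits, 7 for shared subunits, TFIIIA, 6 TFIIIC subunits, 4 TFIIIB subunits, 5 SNAPc subunits, and Maf1, Ssb and Zfp143. All 36 were found among the 55385 genes in the files, and all 36 passed the count filter that left 20524 genes for testing. Their transcripts were read from ribosomes of 6 mouse nervous system cell types. In each, a Cre driver switched on a hemagglutinin-tagged copy of the ribosomal protein RPL22, so that ribosomes of the Cre-expressing cells could be pulled from whole tissue lysate together with their mRNA.

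Every mouse was 6 weeks old and carried 1 floxed Rpl22 allele (Rpl22 Fl/+) and a Cre transgene. Rbp4-Cre marked dentate gyrus granule cells in hippocampus and layer V neurons in cortex. Gabra6-Cre marked cerebellar granule cells in cerebellum, and Dlx6a-Cre marked inhibitory interneurons in hippocampus, for which each library pooled tissue of 2 mice. Aldh1-cre (named Aldh1l1-cre/ERT2 in the study's methods) marked astrocytes and Tmem119-cre marked microglia, both in cortex and both with tamoxifen-inducible Cre. By those methods, mice of inducible lines received tamoxifen by oral gavage from 3 weeks of age, and the neuron lines here were not inducible. An effect of tamoxifen therefore cannot be told apart from a difference between glia and neurons. No wild-type or Cre-negative library was used here, and the identity of the recovered cells is set by the driver. Each cell type had 3 biological replicates of mixed sex labels.

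Pol III makes tRNAs, 5S rRNA and other short non-coding RNAs. At tRNA genes, TFIIIC binds the promoter inside the gene and places TFIIIB, which brings in the polymerase. At genes whose promoter lies upstream, such as those for U6 snRNA, SNAPc takes the place of TFIIIC and TFIIIB carries BRF2 in place of BRF1. MAF1 is the repressor that holds Pol III back when growth signals fall. Ribosome-bound mRNA tells how much message for each of these proteins was being translated, not how much protein or Pol III transcription there was, and for a bulk library of this kind fewer cells and less RNA per cell cannot be told apart.

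The 18 libraries used held 38270477 to 71440915 estimated counts each. The 5 markers fixed for each cell type summed highest in their own type for all but the layer V list, which summed to 330 to 344 TPM in layer V and to 713 to 746 TPM in cerebellar granule cells. Etv1 supplied 728 TPM of the latter, while Fezf2 averaged 85.5 TPM for layer V and was at 0 in cerebellum. Of this list only Fezf2 and Tbr1 were highest in layer V. Bcl11b was higher in dentate granule cells, at 160 TPM against 34.3 TPM in layer V. Rbp4 was higher in interneurons, at 87.0 TPM against 52.2 TPM. TPM is a level relative to all transcripts of a library, already divided by transcript length. Other cells were also present to some degree. The 5 oligodendrocyte markers summed to 2612 to 2795 TPM in interneuron libraries against 102 to 983 TPM elsewhere, and none of them was under 1 TPM in any cell type. The 3 pan-neuronal markers summed to 638 to 879 TPM in astrocyte and 314 to 352 TPM in microglial libraries, against 2973 TPM or more in neurons. The 4 endothelial markers summed to 258 to 382 TPM in microglial libraries and to at most 55.1 TPM elsewhere. The part of these other cells in the glial values was not tested. All microglia and interneuron libraries came from sequencing batch 2 and the other 12 libraries from batch 1. Values within a batch are therefore given for some of the results. Batch 1 alone holds no microglia or interneurons. Batch 2 alone adds the batch 2 libraries of 4 replicates, 1 each of dentate granule cells, layer V neurons, cerebellar granule cells and astrocytes. Those 4 replicates were also sequenced in batch 1, so values of the 2 batches are not independent.

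All 36 messages were present in every cell type (plot of relative levels by library). The lowest estimated count of any of them in any library was 109, for Polr3g. The highest was Ssb, the La protein that binds the 3' ends of new Pol III transcripts, which averaged 242 TPM over the 18 libraries (SD 69.5). Polr3g was lowest, at 3.28 TPM (SD 0.68). Among the polymerase subunits the highest were 3 shared ones, Polr2e at 98.3 TPM averaged over types, Polr2f at 90.1 TPM and Polr1d at 86.7 TPM, followed by Polr3gl at 57.0 TPM. The catalytic subunits Polr3a and Polr3b averaged only 10.8 and 7.86 TPM.

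The spread between cell types was modest for most of the machinery. The ratio of the highest to the lowest type mean ran from 1.40 for Polr2k to 4.08 for Zfp143, with a median of 2.25, and 13 of the 36 genes stayed under 2-fold. Cerebellar granule cells held the highest mean for 15 genes. Layer V neurons held the lowest for 11, microglia for 10 and astrocytes for 9. In a joint test of any difference among the 6 types, all 36 genes passed an adjusted p of 0.05 (edgeR's quasi-likelihood test, Benjamini-Hochberg over all genes), as did 97.3% of all genes tested, so that the count is close to the background.

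**Figure D1:**
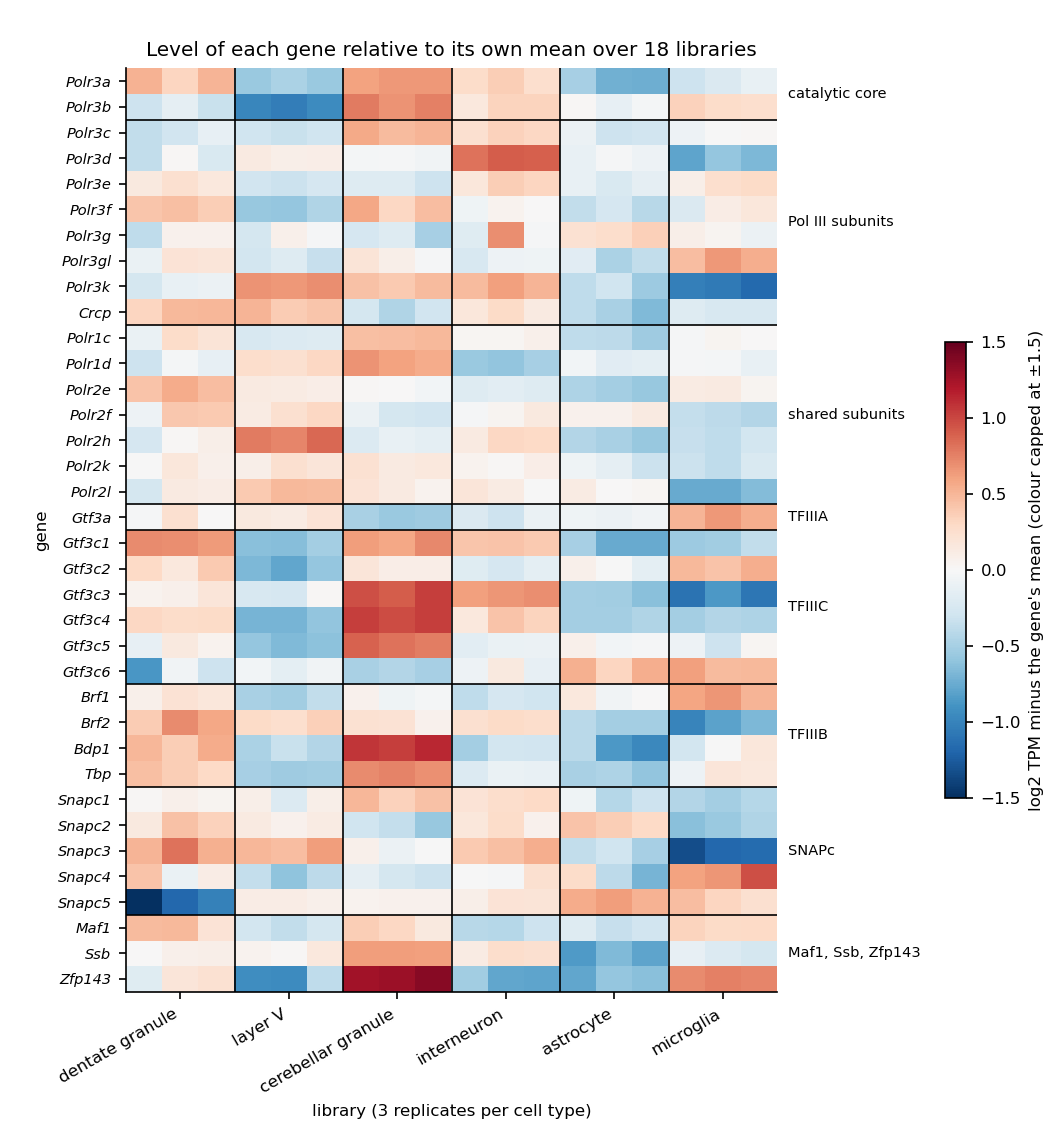
Levels of the 36 genes in each of the 18 libraries, as log2 TPM minus the gene's own mean over all libraries; rows are genes grouped by complex, columns are libraries grouped by cell type, red is above and blue below the gene's mean. Replicates of a type resemble each other, Zfp143 and Bdp1 are highest in the 3 cerebellar granule cell libraries, and Snapc5 is lowest in the 3 dentate granule cell libraries.

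The first comparison asked how glia differ from neurons, as the mean of astrocytes and microglia against the mean of the 4 neuron types. The machinery moved both ways, and 15 genes were higher in glia and 17 lower at an adjusted p of 0.05 in edgeR's test, where 46.8% and 36.4% of all genes were called in these directions and 83.3% in either. Differences were small. The median size of the log2 fold change was 0.42 over the 36 genes and 0.93 over all genes, and 1 gene, Gtf3c6, passed 2-fold, as did 46.3% of all genes. Leaving out any of 11 single libraries brought this count to 2, with Gtf3c3 lying next at -0.99. Genes of 1 complex went opposite ways: TFIIIC had 3 subunits higher and 3 lower, SNAPc 3 higher and 2 lower, TFIIIB 1 higher and 3 lower. Fold changes below are log2 values from the same fit on estimated counts, each with its standard error (SE), and adjusted p-values are edgeR's. Over all genes the median of this comparison was 0.18, so a gene at 0 lies slightly below the middle of the genes tested.

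Astrocytes alone had 10 genes higher and 18 lower than neurons, where 77.1% of all genes were called, 43.0% higher and 34.1% lower. Microglia alone had 15 higher and 18 lower, where 82.3% of all genes were called, 45.1% higher and 37.2% lower. Passing 2-fold were Gtf3c6 and Snapc5 in astrocytes, both higher, with 42.0% of all genes doing so. In microglia they were Polr3k, Gtf3c3, Snapc3 and Snapc1, all lower, with 53.1% of all genes. These comparisons share the neuron libraries.

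**Figure D2:**
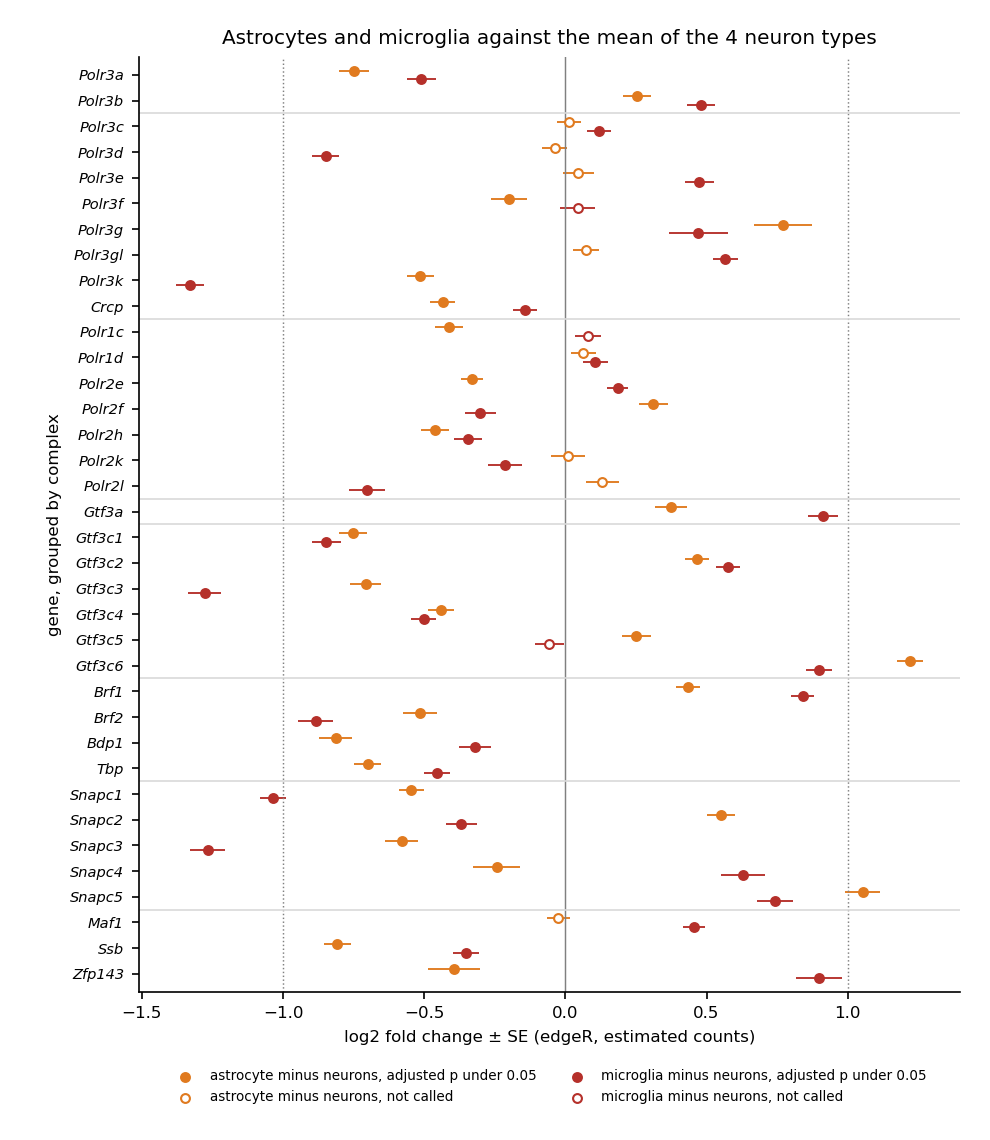
Log2 fold change of each gene in astrocytes (orange) and in microglia (red) against the mean of the 4 neuron types, with SE bars, from edgeR on estimated counts; filled points passed an adjusted p of 0.05, open points did not, and dotted lines mark 2-fold. Gtf3c6 and Snapc5 lie to the right of 0 for both glial types, and Gtf3c3, Snapc3, Snapc1, Brf2 and Polr3k to the left.

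The catalytic subunits parted. Polr3a (chr14:24448696-24487058, minus strand, GRCm38), which encodes the largest subunit, ran from 6.90 to 15.9 TPM in the 12 neuron libraries with a median of 12.9. It stood at 7.19, 6.18 and 6.10 TPM in astrocytes and at 8.18, 8.75 and 9.36 TPM in microglia. Layer V neurons overlapped with glia, and all other neuron libraries lay above them. Polr3a was lower in glia by a log2 fold change of -0.63 (SE 0.04, adjusted p = 6.3e-11). Polr3b, its partner at the active site, was higher in glia at 0.37 (SE 0.04, adjusted p = 7.3e-08), though its 12 neuron libraries spanned 3.60 to 12.6 TPM and enclosed all glial values.

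Of the 8 other Pol III subunit genes, 3 were higher in glia, 3 lower and 2 not called. Polr3k (chr2:181864337-181870830, plus strand) encodes the small subunit that cleaves RNA and serves termination. It lay between 20.8 and 40.2 TPM in neurons (median 34.6), at 19.1, 20.3 and 17.01 TPM in astrocytes and at 12.2, 11.9 and 11.1 TPM in microglia. No glial library reached the lowest neuron library, and the microglial libraries were the lowest of all. Polr3k fell by 1.33 on the log2 scale in microglia (SE 0.05, adjusted p = 2.5e-14), and by 1.43 within batch 2. Astrocytes stood at -0.51 (SE 0.05, adjusted p = 1.4e-08).

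Polr3d, which pairs with Polr3e in a subcomplex that acts in initiation and termination, fell in microglia as well, at -0.85 (SE 0.05, adjusted p = 1.1e-11), and was not called in astrocytes. Its microglial values of 11.4, 13.2 and 12.4 TPM lay under all 12 neuron libraries. Polr3e instead rose in microglia, at 0.47 (SE 0.05, adjusted p = 1.3e-07). Its microglial values of 16.7, 18.6 and 19.2 TPM overlapped with interneurons (17.7, 20.2 and 19.6 TPM) and dentate granule cells (17.3, 18.6 and 17.5 TPM). Crcp, a subunit of the stalk of the enzyme, was lower in both glial types.

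Polr3g and Polr3gl encode alternative forms of the same subunit, the former known from stem cells and growing cells and the latter from most adult tissues. Polr3gl was the major form in every library. It measured 43.6 to 64.3 TPM in neurons (median 53.0), 49.4, 39.97 and 43.2 TPM in astrocytes and 76.5, 87.3 and 81.1 TPM in microglia. Polr3g measured 2.29 to 5.22 TPM in neurons (median 3.01), 3.76, 3.86 and 4.14 TPM in astrocytes and 3.43, 3.31 and 3.02 TPM in microglia. All microglial libraries exceeded all others for Polr3gl over all its transcripts. Over protein-coding transcripts alone they did not, with 44.8 to 47.3 TPM in microglia and 30.7 to 54.4 TPM in neurons. For Polr3g, neurons and glia overlapped.

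As a share of the summed TPM of this pair, Polr3g ran from 3.59% to 9.01% over the 18 libraries. The astrocyte mean of 8.21% (SD 0.98, n = 3) was the highest and the microglial mean of 3.84% (SD 0.38, n = 3) the lowest. Over coding transcripts alone microglia were not the lowest, at 6.61% against 5.86% in dentate granule cells. The 9.01% came from interneuron replicate 2, whose group mates stood at 5.69% and 5.61%. Taken from estimated counts, which are not divided by length, the same share was higher throughout, at 21.6% in astrocytes and 13.7% in microglia, and lowest in cerebellar granule cells at 11.6%. By counts, Polr3gl rose in microglia at 0.57 (SE 0.04, adjusted p = 1.3e-09) and was not called in astrocytes. Polr3g rose in glia at 0.62 (SE 0.08, adjusted p = 1.7e-06), but on log2(TPM + 1) in limma the difference was 0.17 and not called. With counts scaled for transcript length it was 0.39 (SE 0.12, adjusted p = 0.0054). Polr3gl rose in glia at 0.32 (SE 0.04, adjusted p = 1.7e-07), and in batch 1, which holds no microglia, at 0.05 with no call.

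Most shared subunits that differed were lower in glia. Of the 7 genes, 4 were lower in glia (Polr1c, Polr2e, Polr2h, Polr2l), 1 was higher (Polr1d) and 2 were not called (Polr2f, Polr2k). Polr2k stood at -0.10 in the count-based fit (SE 0.05, adjusted p = 0.053). By TPM its glial libraries, at 42.5 to 52.9 TPM, all lay under its neuron libraries, at 55.2 to 65.0 TPM. Polr2h, common to all nuclear RNA polymerases, had the largest difference at -0.40 (SE 0.04, adjusted p = 1.8e-08), with 25.4 to 31.2 TPM in 6 glial and 31.8 to 68.2 TPM in 12 neuron libraries. Polr2l fell in microglia at -0.70 (SE 0.06, adjusted p = 9.8e-09). Its microglial libraries, at 15.4, 15.4 and 16.6 TPM, lay below the 21.7 TPM of the lowest neuron library, whereas astrocytes lay within the neuron range. Polr2e, the most abundant of the 7, measured 69.9, 67.6 and 64.8 TPM in astrocytes and 104.9, 105.5 and 98.8 TPM in microglia, against 83.9 to 141.6 TPM in neurons. Astrocytes lay below all neuron libraries and microglia among them. Polr1c and Polr1d, shared with Pol I, stood at only -0.17 and 0.08.

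Gtf3a, the zinc finger factor TFIIIA that recognises 5S rRNA genes, was higher in glia at 0.64 (SE 0.04, adjusted p = 1.4e-10). Microglia held 45.02, 49.9 and 46.3 TPM, above the 21.6 to 37.3 TPM of neurons. Astrocytes, at 30.3, 29.7 and 30.6 TPM, lay inside the neuron range, and the count-based fit put them at 0.37 (SE 0.06, adjusted p = 8.3e-06).

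TFIIIC split evenly. Gtf3c6 (chr10:40247703-40258108, minus strand), its smallest subunit, was the gene with the largest rise in glia. It lay between 31.2 and 63.5 TPM in neurons (median 52.2), at 83.3, 71.6 and 83.7 TPM in astrocytes and at 88.0, 79.5 and 80.1 TPM in microglia. Every glial library was above every neuron library. The log2 fold change was 1.06 in glia (SE 0.04, adjusted p = 9.1e-15), 1.22 in astrocytes (SE 0.05, adjusted p = 3.9e-14) and 0.90 in microglia (SE 0.05, adjusted p = 3.5e-12). Within batch 2 the glial value was 0.93, and it was 0.92 with counts scaled for transcript length and 0.73 in limma on log2(TPM + 1), so its place past 2-fold rests on the setting.

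Gtf3c2 was also higher in glia, at 0.52 (SE 0.03, adjusted p = 6.8e-11). Its microglial libraries, at 38.6, 37.0 and 40.2 TPM, lay above all neuron libraries, but astrocytes held only 29.0, 27.5 and 24.8 TPM. Dentate granule cells (34.0, 30.8 and 36.2 TPM) and cerebellar granule cells (31.1, 29.45 and 29.5 TPM) all lay above astrocytes. Gtf3c5 was called but near 0, at 0.10 (SE 0.04, adjusted p = 0.030). In the opposite direction, Gtf3c3 measured 11.1 to 27.2 TPM in neurons (median 17.6), 9.26, 9.20 and 8.54 TPM in astrocytes and 6.15, 7.27 and 6.26 TPM in microglia. The 3 groups formed descending steps with no overlap. Gtf3c3 fell by 1.28 in microglia on the log2 scale (SE 0.06, adjusted p = 3.6e-13) and by 0.71 in astrocytes (SE 0.06, adjusted p = 1.4e-09).

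Gtf3c1, the largest TFIIIC subunit and one that contacts the internal promoter, was lower in glia at -0.80 (SE 0.04, adjusted p = 6.7e-13), with layer V neurons, at 20.6, 20.5 and 22.3 TPM, in the glial range. Gtf3c4 followed at -0.47 (SE 0.04, adjusted p = 5.4e-10). Summed over 6 subunits, TFIIIC reached 204 TPM in cerebellar granule cells (SD 3.49) and 124 TPM in layer V neurons (SD 5.46), with the other types at means of 162 to 177 TPM.

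In TFIIIB the paralogs BRF1 and BRF2 went opposite ways. Brf1 (chr12:112960085-113000704, minus strand) measured 18.6 to 30.9 TPM in neurons (median 23.97), 29.8, 25.8 and 26.7 TPM in astrocytes and 40.2, 42.1 and 38.0 TPM in microglia. Microglia stood above all other libraries, and astrocytes overlapped with neurons. Brf1 rose in glia at 0.64 (SE 0.03, adjusted p = 1.9e-12), by 0.43 in astrocytes and 0.84 in microglia.

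Brf2 (chr8:27123364-27128680, minus strand) measured 18.9 to 29.6 TPM in neurons (median 22.0), 13.7, 12.8 and 12.7 TPM in astrocytes and 9.13, 10.4 and 11.4 TPM in microglia. All glial libraries lay under all neuron libraries. Brf2 fell by 0.70 on the log2 scale in glia (SE 0.05, adjusted p = 9.9e-11), by 0.52 in astrocytes and by 0.88 in microglia. In both batches taken alone the direction held for each paralog, with Brf1 at 0.40 and 0.45 and Brf2 at -0.54 and -0.76 in batches 1 and 2.

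The share of Brf2 in the summed TPM of Brf1 and Brf2 stepped down from neurons to glia (plot of paralog shares). Its mean was 53.4% in layer V neurons (SD 0.49, n = 3), 50.3% in interneurons (SD 0.76), 47.4% in dentate granule cells (SD 1.71) and 43.5% in cerebellar granule cells (SD 1.71). Astrocytes stood at 32.3% (SD 0.85) and microglia at 20.5% (SD 2.33). The lowest neuron library held 41.9%, the highest astrocyte library 33.1% and the highest microglial library 23.0%. No 2 neighbours in this order overlapped. The closest were dentate granule cells, at 45.6% to 49.0%, and cerebellar granule cells, at 41.9% to 45.3%, and their order turned over coding transcripts alone, at 39.9% and 41.0%. The share is a description and was not tested.

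**Figure D3:**
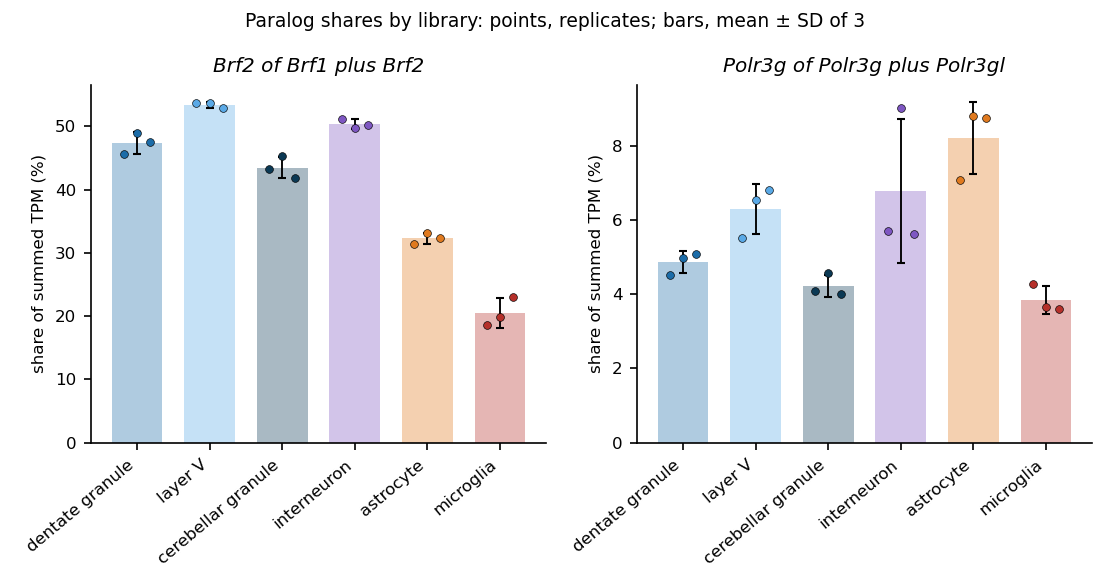
Share of Brf2 in the summed TPM of Brf1 and Brf2 (left) and of Polr3g in that of Polr3g and Polr3gl (right), in percent, by cell type; points are the 3 replicates, bars the mean and error bars the SD. The Brf2 share is 41.9% or more in each neuron library and 33.1% or less in each glial library, and the Polr3g share is 9.01% or less in all 18.

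The remaining TFIIIB genes were lower in glia than in the mean of the neuron types, and only both granule cell types lay above all glial libraries. Tbp, the TATA-binding protein used by all nuclear polymerases, was at -0.58 (SE 0.04, adjusted p = 3.5e-11) and Bdp1 at -0.57 (SE 0.04, adjusted p = 9.9e-10). Bdp1, the least abundant TFIIIB gene, measured 6.63, 4.80 and 4.47 TPM in astrocytes, 7.21, 8.76 and 9.84 TPM in microglia and 6.17 to 19.1 TPM in neurons. Layer V neurons, at 16.8 to 17.3 TPM for Tbp and 6.32 to 6.94 TPM for Bdp1, overlapped with astrocytes for Tbp and lay within the glial range for Bdp1. Microglia, at 23.0, 27.5 and 27.2 TPM for Tbp, lay above layer V neurons and above interneurons, at 21.0, 22.7 and 22.5 TPM. For Bdp1, interneurons lay within the glial range as well, at 6.17, 7.23 and 7.18 TPM. Summed over its 4 genes, TFIIIB was highest in cerebellar and dentate granule cells, at 105 TPM (SD 2.02) and 100.2 TPM (SD 2.81), and lowest in astrocytes at 62.8 TPM (SD 4.05).

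In SNAPc, a small and a DNA-binding subunit went opposite ways. Snapc5 (chr9:64179274-64183132, plus strand), the small one, measured 48.3, 50.5 and 46.95 TPM in astrocytes and 44.9, 40.8 and 38.5 TPM in microglia. Neurons ran from 11.6 to 37.6 TPM (median 34.4), all below glia. Snapc5 rose by 1.05 in astrocytes (SE 0.06, adjusted p = 2.2e-11) and by 0.74 in microglia (SE 0.06, adjusted p = 3.9e-09) on the log2 scale. Leaving out dentate granule cell replicate 2, any 1 interneuron library or microglia replicate 3 took the astrocyte value just under 2-fold, to no lower than 0.98. It was 0.93 within batch 2 and 0.77 in limma on log2(TPM + 1). The neuron mean includes dentate granule cells, at a mean of 14.1 TPM. The other neuron types had means of 34.2 to 36.5 TPM, against 48.6 TPM in astrocytes.

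Snapc3 (chr4:83417724-83467676, plus strand), which takes part in binding the upstream promoter element, measured 22.5 to 42.0 TPM in neurons (median 33.5), 18.5, 19.5 and 16.98 TPM in astrocytes and 9.50, 10.6 and 10.8 TPM in microglia. Its groups did not overlap, and microglia were lowest. It fell by 1.27 in microglia (SE 0.06, adjusted p = 1.1e-12) and by 0.58 in astrocytes (SE 0.06, adjusted p = 4.8e-08). Snapc1 measured 16.4, 15.5 and 16.4 TPM in microglia against 19.2 TPM or more in neurons, and fell by 1.04 (SE 0.05, adjusted p = 2.6e-13). The Snapc1 difference stayed called but was smaller with counts scaled for transcript length, at -0.52, and in limma on log2(TPM + 1), at -0.61, and it lay just short of 2-fold in DESeq2. Within batch 2, Snapc3 was at -1.33 and Snapc1 at -1.08. Snapc4, the largest subunit, measured 21.9, 22.9 and 28.2 TPM in microglia, above the 9.52 to 19.4 TPM of neurons, and 17.5, 11.01 and 8.91 TPM in astrocytes. It rose in microglia at 0.63 (SE 0.08, adjusted p = 6.8e-07) and fell in astrocytes at -0.24 (SE 0.08, adjusted p = 0.014).

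**Figure D4:**
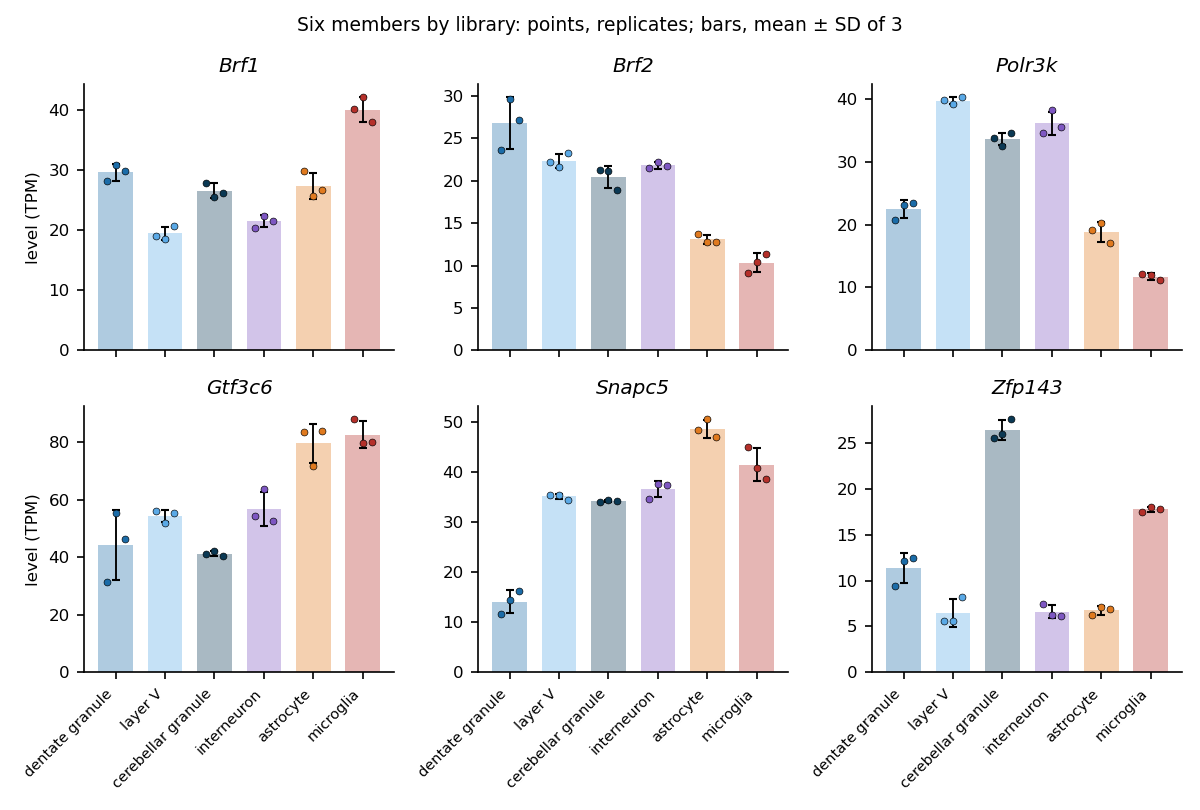
TPM of Brf1, Brf2, Polr3k, Gtf3c6, Snapc5 and Zfp143 by cell type; points are the 3 replicates, bars the mean and error bars the SD, and each axis starts at 0. Glia lie above neurons for Gtf3c6 and Snapc5 and below them for Brf2 and Polr3k, and Zfp143 is high in cerebellar granule cells and microglia.

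Among the regulators, Ssb fell in glia by 0.58 (SE 0.04, adjusted p = 3.2e-11). It measured 129, 147 and 134 TPM in astrocytes and 213, 201 and 194 TPM in microglia, all under the 233 TPM of the lowest neuron library. Cerebellar granule cells, at 359.6, 359 and 357 TPM, stood above every other library.

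Maf1, the Pol III repressor, did not divide along the line between neurons and glia. It lay at 119.5, 121 and 99.0 TPM in dentate granule cells, at 111, 107 and 95.7 TPM in cerebellar granule cells and at 109, 105 and 106 TPM in microglia. Layer V neurons (71.0, 66.6 and 72.1 TPM), interneurons (64.4, 64.1 and 69.6 TPM) and astrocytes (75.2, 67.8 and 70.4 TPM) were lower, and these sets of types did not overlap. The glial difference was 0.22 (SE 0.03, adjusted p = 5.7e-06), with 0.46 in microglia (SE 0.04, adjusted p = 5.8e-09) and -0.02 in astrocytes (SE 0.04, adjusted p = 0.59). In batch 1 alone, where glia are astrocytes only, it turned to -0.12.

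Zfp143 (chr7:110061217-110095394, plus strand), a zinc finger activator of upstream promoters of both Pol II and Pol III, varied the most. It measured 25.6, 26.0 and 27.6 TPM in cerebellar granule cells, 17.4, 18.03 and 17.81 TPM in microglia and 9.44, 12.1 and 12.5 TPM in dentate granule cells. Layer V neurons (5.60, 5.57 and 8.21 TPM), interneurons (7.42, 6.22 and 6.15 TPM) and astrocytes (6.24, 7.12 and 6.91 TPM) overlapped with one another at the low end. Zfp143 was higher in microglia than in neurons at 0.90 (SE 0.08, adjusted p = 1.1e-08) and lower in astrocytes at -0.39 (SE 0.09, adjusted p = 0.00076).

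Promoter sequence is shown for 3 genes, chosen after their values were seen because their levels set the cell types apart. Of the 36 genes, 29 had an entry in the RefSeq promoter table (GRCm38.p6). The 250 bases before the RefSeq start were searched on both strands. For Zfp143 and Gtf3c6 this start lies inside the gene as given by the GENCODE coordinates above, so the stretch shown lies within the GENCODE gene. The long site known for ZFP143 was found before 1 of the 29, Snapc3, and before 1.02% of 27025 genes. CACGTG, the E-box bound by MYC and related factors, was found before Gtf3c6, Polr3gl and Polr3c, and before 6.86% of all genes. The NRF1-type palindrome was found before 4 members and before 4.23% of all genes, and GGGCGG before 16 of the 29 and before 35.4% of all genes. The sequences below are those of Snapc3 (chr4:83417474-83417723, plus strand), whose level was lowest in microglia, of Gtf3c6 (chr10:40257713-40257962, minus strand), highest in glia, and of Zfp143 itself (chr7:110061452-110061701, plus strand). Capitals mark the ZFP143-type site in Snapc3, the E-box in Gtf3c6 and GGGCGG in Zfp143, which begin 38, 56 and 38 bases before the start.
Snapc3: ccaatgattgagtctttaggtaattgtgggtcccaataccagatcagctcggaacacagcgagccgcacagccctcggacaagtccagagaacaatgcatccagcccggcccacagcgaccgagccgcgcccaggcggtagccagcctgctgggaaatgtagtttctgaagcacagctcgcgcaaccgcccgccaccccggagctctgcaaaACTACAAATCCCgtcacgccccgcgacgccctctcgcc
Gtf3c6: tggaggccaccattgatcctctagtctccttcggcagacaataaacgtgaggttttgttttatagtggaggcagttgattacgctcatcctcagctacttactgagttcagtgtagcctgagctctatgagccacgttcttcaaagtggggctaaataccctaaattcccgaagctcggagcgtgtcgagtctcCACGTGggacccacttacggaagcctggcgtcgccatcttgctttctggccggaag
Zfp143: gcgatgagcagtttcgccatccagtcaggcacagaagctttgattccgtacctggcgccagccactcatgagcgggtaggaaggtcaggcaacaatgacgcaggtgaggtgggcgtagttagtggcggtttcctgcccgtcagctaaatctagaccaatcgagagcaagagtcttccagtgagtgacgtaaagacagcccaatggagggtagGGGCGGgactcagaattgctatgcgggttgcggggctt

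A direct comparison of microglia with astrocytes called 16 genes higher and 13 lower in microglia, where 76.1% of all genes were called, 36.3% higher and 39.8% lower. Zfp143 was the 1 gene past 2-fold, at 1.29 (SE 0.11, adjusted p = 7.3e-09), as did 44.3% of all genes in this comparison, and within batch 2 it was at 1.34. The next higher genes in microglia were Snapc4 at 0.87 (SE 0.10, adjusted p = 5.2e-07), Gtf3a at 0.54 and Polr2e at 0.52. Lower in microglia were Snapc2 at -0.92 (SE 0.07, adjusted p = 6e-10), Polr2l at -0.83, Polr3k at -0.82 and Polr3d at -0.81. Snapc2 measured 20.6, 21.7 and 23.3 TPM in microglia and 43.0, 41.2 and 39.4 TPM in astrocytes, groups that did not overlap.

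Each neuron type was then set against the mean of the other 3. Cerebellar granule cells had 19 genes higher and 10 lower, where 77.9% of all genes were called, 34.9% higher and 43.0% lower, and the median over all genes was -0.21. The median over the 36 genes was 0.24. Both catalytic subunits, 5 of 6 TFIIIC genes, 3 of 4 TFIIIB genes and all of Maf1, Ssb and Zfp143 were higher. Past 2-fold were 5 genes, all higher, at a background of 43.6%.

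Zfp143 led them at 1.74 (SE 0.08, adjusted p = 1.6e-12), with 1.60 in batch 1 and 1.98 in batch 2. Bdp1, the TFIIIB scaffold, measured 18.4, 18.003 and 19.1 TPM in cerebellar granule cells against 6.17 to 12.9 TPM in the other 9 neuron libraries and stood at 1.18 (SE 0.05, adjusted p = 7e-13). Gtf3c5 followed at 1.08 (SE 0.05, adjusted p = 7.7e-13), with 28.0, 26.5 and 25.8 TPM against at most 16.7 TPM in other neurons. Gtf3c4 (31.0, 29.8 and 31.1 TPM) and Polr3b (12.6, 11.7 and 12.4 TPM) were both at 1.03 and also lay above every other neuron library. Lower were Crcp at -0.70 (SE 0.05, adjusted p = 1e-10), Gtf3a at -0.55 and Snapc2 at -0.55. With library totals in place of TMM scaling factors, where the median over all genes was -0.38, 2 genes were past 2-fold.

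Layer V neurons had 15 genes higher and 16 lower, where 67.6% of all genes were called, 35.9% higher and 31.7% lower. None of the 36 passed 2-fold at an adjusted p in edgeR, nor at an unadjusted p or in DESeq2, while limma on log2(TPM + 1) gave 3, and 26.5% of all genes passed in edgeR. The same fit gave 6 in batch 1 alone, and 1 without dentate granule cell replicate 2 or 3, any interneuron replicate or microglia replicate 3. Both catalytic subunits and 5 of 6 TFIIIC genes were lower. Polr3b, at 3.72, 3.60 and 3.82 TPM, was under all 9 other neuron libraries (5.82 to 12.6 TPM), at -0.99 (SE 0.06, adjusted p = 3.7e-11). Gtf3c4 stood at -0.94, Gtf3c1 at -0.89 and Polr3a at -0.78. By contrast, 6 of 7 shared subunit genes were higher, led by Polr2h at 0.97 (SE 0.05, adjusted p = 5.4e-12), which measured 64.8, 62.4 and 68.2 TPM against at most 46.6 TPM in other neurons.

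These opposite shifts went with transcript length (plot of fold change against length). Across the 36 genes, the log2 fold change of layer V neurons against other neurons and the mean effective transcript length had a Spearman correlation of -0.755, against -0.204 across all 20524 genes. For cerebellar granule cells it was 0.543, against 0.133 across all genes. These are descriptions across genes, which share their libraries and are not independent. Of the 12 genes with a mean effective length over 2500 bases, 11 were lower in layer V neurons, and 10 were higher in cerebellar granule cells and 1 lower. Of the 24 shorter ones, 15 were higher and 5 lower in layer V neurons, and 9 higher and 9 lower in cerebellar granule cells.

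Over all genes the layer V median also stepped down by length, from 0.30 over the shortest 5131 genes to -0.24 over the longest 5131. For cerebellar granule cells it stepped up, from -0.48 to 0.11. Counts scaled for transcript length gave correlations of -0.75 and 0.498 for the 36 genes, and protein-coding transcripts alone gave -0.756 and 0.545. The part of length in these differences was not tested. The Polr3a, Polr3b, Gtf3c1, Gtf3c4 and Bdp1 messages are the 5 longest of the machinery.

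**Figure D5:**
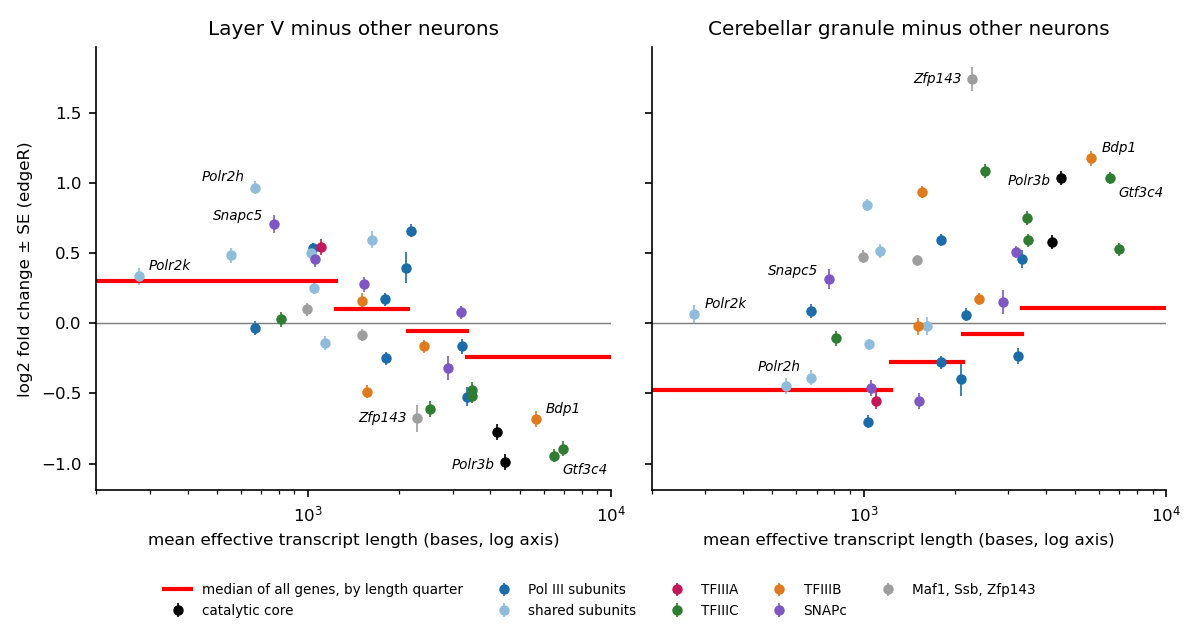
Log2 fold change with SE of each gene against its mean effective transcript length on a log axis, for layer V neurons (left) and cerebellar granule cells (right) against the other neuron types; colours mark complexes, and red lines give the median over all genes in each of 4 length classes of equal size. Long messages such as Gtf3c4 and Polr3b lie low on the left and high on the right.

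Dentate granule cells had 15 genes higher and 13 lower, where 64.2% of all genes were called, 36.5% higher and 27.6% lower. Snapc5 was the single gene past 2-fold, where 25.6% of all genes passed, at 11.6, 14.4 and 16.3 TPM against 33.9 to 37.6 TPM in the other 9 neuron libraries. It fell by 1.37 on the log2 scale (SE 0.08, adjusted p = 3.4e-11), by 1.47 in batch 1 and by 1.16 in batch 2. Polr3k was lower at -0.75 (SE 0.05, adjusted p = 2.9e-10), with 20.8, 23.1 and 23.4 TPM against 32.6 TPM or more. All 4 TFIIIB genes were higher, between 0.14 for Brf2 and 0.34 for Bdp1. Dentate granule cell replicate 1 stood apart from its group mates, with a chi-square per gene of 34.7 and 39.3 against them and 16.7 between them. Without any 1 library, Snapc5 stayed between -1.49 and -1.27. The Gtf3c6 level of replicate 1, 31.2 TPM, compared with 55.3 and 46.4 TPM in the others.

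Interneurons had 7 genes higher and 20 lower, where 64.4% of all genes were called in either direction and 28.4% lower. Of all 20524 genes tested, 7389 were called higher in interneurons and 5838 lower. Among 7 shared subunits 6 were lower, among 4 TFIIIB genes all 4, and among the regulators all 3. Polr1d, at 57.1, 55.5 and 59.5 TPM, lay under all other neuron libraries at -0.97 (SE 0.05, adjusted p = 6.3e-12). Polr3d was the highest in the other direction, at 0.78 (SE 0.04, adjusted p = 4.6e-11), with 34.6, 36.9 and 36.8 TPM against 15.3 to 21.7 TPM. Zfp143 was past 2-fold at -1.11 (SE 0.10, adjusted p = 1.9e-08), where 24.6% of all genes passed, but its interneuron and layer V libraries overlapped. With library totals in place of TMM, 11 genes were lower and Zfp143 stood at -0.94. All interneuron libraries came from batch 2 and the other neuron libraries used from batch 1. Batch and cell type therefore cannot be told apart in this comparison. The interneuron libraries also held the highest oligodendrocyte marker sums given above, and the part of those cells in the interneuron values was not tested.

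For some genes the deposited quantities included transcripts that do not encode the full protein. Transcripts not annotated as protein-coding held a median over the 36 genes of 2.09% of TPM in layer V neurons and 11.3% in microglia. Their share exceeded 20% for 12 genes in microglia and 10 in interneurons. It did so for 8 genes in layer V neurons, 7 in dentate granule cells, 7 in astrocytes and 5 in cerebellar granule cells. Over all genes the library medians were 0.926% to 1.04% in layer V neurons and 3.75% to 4.58% in microglia. In microglia a retained-intron transcript, Polr3gl-203, held 41.8% of Polr3gl TPM, against 12.3% to 23.5% in the other types. For Polr3a, transcripts not annotated as coding held 32.4% of TPM in microglia (SD 7.04), 17.2% in astrocytes (SD 5.30) and at most 4.28% on average in a neuron type. For Snapc4 they held 39.7% in cerebellar granule cells and 64.25% or more on average in every other type. For Bdp1 their mean share ran from 29.04% in dentate granule cells to 53.5% in microglia. The values of these genes over all transcripts include that part. The leading transcript was the same in all 6 types for 31 of the 36 genes, and Polr3gl, Gtf3c2, Snapc4, Polr1d and Polr2k were the exceptions.

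Restricting the fit on counts to protein-coding transcripts kept the microglial direction of Polr3gl, Gtf3c2 and Snapc4. Polr3gl stood at 0.51 (SE 0.05, adjusted p = 8.3e-09), although its coding TPM was higher in cerebellar granule cells, at 50.5 (SD 3.82), and dentate granule cells, at 48.0 (SD 5.50), than in microglia, at 45.96 (SD 1.28). Gtf3c2 stood at 0.39 (SE 0.05, adjusted p = 5.7e-07) and Snapc4 at 1.11 (SE 0.14, adjusted p = 8.6e-07). Polr3a in glia stood at -0.72 (SE 0.04, adjusted p = 3.5e-11).

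Other polymerase and pathway genes were counted in the glial comparison. There, 46.8% of all genes were called higher, 36.4% lower and 46.3% past 2-fold. Of 12 Pol I genes tested, 5 were higher and 4 lower, with Rrn3, the factor that readies Pol I for initiation, past 2-fold at -1.01 (SE 0.03, adjusted p = 2.6e-16). Of 8 Pol II-specific subunits, 1 was higher and 5 lower. Of 20 growth-signalling genes that act on Pol III or MAF1, 8 were higher and 11 lower. The largest of them were Rbl1 at 4.33, Myc at 3.40 and Rb1 at 1.39 (adjusted p at most 2.6e-15 for each in edgeR's test). Myc averaged 21.4 TPM in glia (SD 18.3, n = 6) and 2.85 TPM in neurons (SD 2.13, n = 12). The glial mean pools astrocytes and microglia and its SD is wide, so it need not be the level of either type. Of 14 genes that handle Pol III transcripts, 4 were higher and 8 lower. Pou2f1, the OCT1 factor of upstream promoters, was at 1.35 (SE 0.06, adjusted p = 2.3e-13), and Ro60, which binds misfolded 5S rRNA and Y RNAs, at -1.23 (SE 0.04, adjusted p = 6.2e-15). Median differences of these 4 lists lay between -0.19 and 0.09, against 0.18 over all genes.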

How the data were processed

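Ribosome-bound mRNA of 6 cell types was sequenced with 3 biological replicates each. The authors deposited, per transcript and library, estimated counts, effective lengths and TPM from kallisto 0.46.2 on Gencode M24 transcripts (GRCm38), after trimming with cutadapt 3.5. The tool versions are credited to the submitters' processing notes and the transcript set to the study's methods. Kallisto divides reads among similar transcripts by likelihood, so estimated counts of genes with near-identical copies are less certain, and TPM depends on the transcripts assigned. The authors' sleuth test was not run.

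Here the transcripts of each gene identifier were summed and the estimated counts rounded. Of 22 libraries, 18 were used, with the batch 1 library taken for the 4 replicates sequenced in both batches. They held 38270477 to 71440915 counts, and intervals over replicates also carry biological spread. edgeR 4.0.16 in R 4.3.3 (TMM, filterByExpr, quasi-likelihood F-test, Benjamini-Hochberg over 20524 genes) fitted all 6 types in 1 model without batch, since each type then lies in 1 batch. A gene was called at an adjusted p under 0.05, and separately with a fold of at least 2. SE is the size of the log2 fold change divided by the root of F.

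The alternatives were DESeq2 1.42.0, limma 3.58.1 on log2(TPM + 1), other scaling and filters, length-scaled counts, coding transcripts only, other batch choices, a replicate block and leaving out each library. Python 3.11.15, numpy 2.4.6 and pandas 2.3.3 made the tables, and the fit was tested on simulated data. Gene coordinates are from GENCODE M21 (GRCm38), older than the authors' release, and promoters from RefSeq (GRCm38.p6).

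The members and the lists of other genes were chosen with earlier results of these data known. Full statistics were set for members called past 2-fold in a comparison, for Polr3a, Polr3g, Polr3gl, Brf1, Brf2 and Maf1 in glia against neurons, and for at most 3 genes per list past 2-fold there, and library values for the highest and lowest gene of each complex. Other members given with statistics were chosen after their values were seen. 1 gene fixed for description beside the members is not reported here.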

Additional observations from a re-analysis of the deposited data

Results flagged for a closer look

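For 5 genes, astrocytes and microglia shifted from neurons in opposite directions, each shift was called, and the direct comparison of microglia with astrocytes was called in edgeR's test. Polr2e differed by 0.52 on the log2 scale, with astrocytes at -0.33 and microglia at 0.19 against neurons. Snapc4 differed by 0.87, with -0.24 in astrocytes and 0.63 in microglia, and Zfp143 by 1.29, with -0.39 and 0.90. The other two ran the opposite way. Polr2f differed by -0.61, with 0.31 in astrocytes and -0.30 in microglia, and Snapc2 by -0.92, with 0.55 and -0.37. All microglial libraries came from batch 2 and the astrocyte libraries used from batch 1.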

How the results depend on the processing

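Under alternatives other than leaving out a library, 262 counts of called genes stayed within 1.5 times the reported one and 29 moved further. With 1 library left out, 427 stayed and 23 moved further. On limma's log2(TPM + 1), 8 genes were higher in glia, 5 in astrocytes and 9 in layer V neurons, 8 were lower in interneurons, and those past 2-fold numbered 3 in glia, 1 in astrocytes, 3 in layer V neurons, 3 in cerebellar granule cells and 0 in interneurons. With library totals, 11 were lower in interneurons and 0 past 2-fold there, and 2 were past 2-fold in cerebellar granule cells. Without a count filter, 2 were past 2-fold in glia and 2 in microglia against astrocytes. With length-scaled counts, the numbers past 2-fold were 1 in astrocytes, 2 in microglia against astrocytes and 1 in layer V neurons. With coding transcripts only, 3 and 1 were past 2-fold in the latter comparisons. In batch 1 alone, 2 were past 2-fold in glia and 6 in layer V neurons, and 9 were higher in dentate granule cells. In batch 2 alone, 8 were higher in glia and 5 in dentate granule cells, 5 were lower in cerebellar granule cells, and past 2-fold were 2 in microglia against astrocytes and 1 in layer V neurons. Layer V neurons also had 1 with batch 2 libraries in place of batch 1, with or without batch as a term. The cause was not tested for any of these.

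Maf1 in glia turned to -0.12 in batch 1 alone, and missed the threshold in batch 2 alone at 0.11 and in limma at 0.02. Polr3g missed it in limma at 0.17 and Polr3gl in batch 1 alone at 0.05. The other 274 single-gene values kept direction and call. The median over all genes depends on scaling, with glia at 0.18 and -0.05 in limma, cerebellar granule cells at -0.21 and -0.38 with library totals, and interneurons at 0.08 and 0.24.

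From estimated counts, the Polr3g share was 14.1% in dentate granule cells, 17.5% in layer V neurons, 11.6% in cerebellar granule cells, 15.2% in interneurons, 21.6% in astrocytes and 13.7% in microglia, and the Brf2 share 34.7%, 40.7%, 34.4%, 37.3%, 23.1% and 14.9% in the same order. Coding transcripts alone gave Polr3g shares of 5.86% in dentate granule cells, 8.20% in layer V neurons, 9.71% in astrocytes and 6.61% in microglia, and Brf2 shares of 39.9%, 46.8%, 41.0%, 43.1% and 28.2% in dentate, layer V, cerebellar, interneuron and astrocyte libraries. With batch 2 in place of batch 1 the layer V Brf2 share was 52.1%.

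With 1 library left out, the count past 2-fold ran from 1 to 2 in glia (2 without dentate replicate 2 or 3, layer V replicate 1 or 2, any interneuron replicate, or astrocyte or microglia replicate 2 or 3). It ran from 1 to 2 in astrocytes (1 without dentate replicate 2, any interneuron replicate or microglia replicate 3), from 0 to 1 in layer V neurons (1 without dentate replicate 2 or 3, any interneuron replicate or microglia replicate 3) and from 1 to 2 in interneurons (2 without interneuron replicate 1).

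Replicate numbers did not pair the samples. The deviations of 45 pairs with the same number correlated at -0.10 to 0.11 (median 0.04). With the replicate number as a block, 15 genes were higher and 17 lower in glia, as without it, and 12 rather than 13 were lower in dentate granule cells.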
